A study of Mus musculus with 186 samples.

Results

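Scg2, Vgf, Adcyap1 and Pam, 3 neuropeptide precursor genes and the gene of the peptide-amidating enzyme, were chosen by name and followed through every assay of the study. They were 4 of the 298 genes of a bait panel for activity-regulated genes, had a row in each captured gene table, and none was among the 47 control genes that set the scale of those tables. In total RNA, 7 of 27962 transcripts with intron levels belonged to them: 3 of Adcyap1, 2 of Scg2, and 1 each of Vgf and Pam. Of 351 captured enhancer regions, 6 were assigned to them in the authors' deposited table, 2 each for Scg2, Vgf and Pam.

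RNA was measured in cultured cortical neurons of CD1 mouse embryos, taken at E16.5 and kept for 7 to 8 days in vitro, and in visual cortex of adult male C57/Bl6 mice. The study compared sustained with brief neuronal activity and asked what MEK contributes; U0126 and SL327 both inhibit MEK, the kinase that activates ERK. Cultures were given sustained or brief activity, by a means the labels do not name, and sampled at 20, 60 or 360 min beside unstimulated cultures, with U0126, cycloheximide (a blocker of protein synthesis) or the vehicle DMSO. Mice were given SL327 or corn oil and sustained or brief light, and were sampled at 30 or 150 min beside mice kept in the dark.

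In the gene capture, U0126 replicates with sustained activity numbered 3 (20 min), 3 (60 min) and 2 (360 min), beside 3 unstimulated ones. Vehicle replicates numbered 3, 7 and 6 with sustained activity, 3, 7 and 5 with brief activity, in the same order of times, and 7 without stimulation. For cycloheximide there were 4 groups of 2: sustained activity for 360 min and no activity, each with cycloheximide or vehicle. Here a replicate is a replicate number of the labels, and cultures that share one in a group were averaged. Total RNA had 2 replicates a group, except 1 for U0126 with sustained activity at 60 min and 1 for vehicle with brief activity at 60 min. Enhancer capture had 4 replicates a group, and visual cortex groups had 2 or 3 samples.

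Depth ranged between 8498 and 7695002 panel reads in captured gene libraries, 48309 and 1073939 in captured enhancer libraries, and 10486281 and 25945718 intron reads in total RNA, which gave 3193 to 9145 reads over enhancer regions. The library of 8498 reads, replicate 2 of vehicle cultures at 60 min after brief activity, stood far below the others, and results that rest on it are given with and without it. Introns of 8 of 8 neuronal marker genes were detected and summed to between 2920 and 4170 RPM (reads scaled to the total of each library) over the cultures, against 248 to 450 for 5 astrocyte markers and 3.59 to 5.81 for 5 microglial markers. Nothing in the labels says whether replicates came from separate animals, so p-values measure the spread between these samples, which may be technical. In bulk samples, fewer cells of a type and less RNA per cell cannot be told apart.

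Neuropeptides are made as larger precursors that are sorted into dense-core vesicles, cut there by convertases such as Pcsk1, and released when a neuron is active. Scg2 encodes secretogranin II, a granin that yields secretoneurin, and Vgf encodes a granin-like precursor first known as a nerve growth factor response gene. Adcyap1 encodes the precursor of PACAP, a peptide that raises cAMP through its receptors and needs a C-terminal amide, and Pam encodes the enzyme that makes such amides. All 3 precursors are known in brain as genes that neuronal activity can induce, and cAMP response elements (CRE), bound by CREB, are a known route to such induction.

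The sequence before the start of 3 of the 4 genes was available and is shown because Scg2, Adcyap1 and Pam shared a late rise with sustained activity, described below. Each stretch is the 250 bases upstream of a transcription start in RefSeq on GRCm38.p6, written 5′ to 3′ on the gene's own strand. Capitals mark a full CRE (TGACGTCA) in Scg2 and its shorter form (TGACG) in Adcyap1.
Scg2, chr1:79440027-79440276, minus strand: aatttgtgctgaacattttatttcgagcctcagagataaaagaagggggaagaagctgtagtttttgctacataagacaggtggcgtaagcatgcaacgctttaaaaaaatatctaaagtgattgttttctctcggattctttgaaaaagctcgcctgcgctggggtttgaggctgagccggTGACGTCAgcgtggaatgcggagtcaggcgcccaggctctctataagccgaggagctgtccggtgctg
Adcyap1, chr17:93198767-93199016, plus strand: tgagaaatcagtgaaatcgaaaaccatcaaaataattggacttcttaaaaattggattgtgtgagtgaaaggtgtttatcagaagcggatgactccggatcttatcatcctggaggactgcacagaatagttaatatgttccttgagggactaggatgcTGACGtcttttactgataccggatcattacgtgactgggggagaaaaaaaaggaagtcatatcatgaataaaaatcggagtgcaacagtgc
Pam, chr1:98095647-98095896, minus strand: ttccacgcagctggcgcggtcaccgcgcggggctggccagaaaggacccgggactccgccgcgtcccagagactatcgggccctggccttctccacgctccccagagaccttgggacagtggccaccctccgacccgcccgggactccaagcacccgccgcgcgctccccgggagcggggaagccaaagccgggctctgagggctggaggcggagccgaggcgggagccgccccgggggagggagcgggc
The Scg2 stretch held a full CRE that began 68 bases before the start, and the shorter forms found there, 1 on each strand, lie inside it. A full CRE was present in 1.55% of 32851 promoter windows of the same length. The Adcyap1 stretch held the shorter form 91 bases before the start, a match present in 17.8% of windows. Pam had neither of these, and none of the 3 stretches held the AP-1 motif TGANTCA, which 6.75% of windows held. Both strands were searched, and RefSeq lists a second start for Adcyap1 and for Pam whose windows overlap those printed. A match is a run of letters and does not show binding.

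Sustained activity in vehicle cultures raised Vgf by 60 min and all 4 genes by 360 min. At 20 min, 0 of the 4 genes passed the limma test, against 2.17% of all 277 genes tested that were called higher, and 0 had an unadjusted p under 0.05. The changes at 20 min lay between −0.31 ± 0.72 for Adcyap1 and 0.28 ± 0.31 for Pam. At 60 min, 1 of the 4 passed, Vgf, where 13% of genes tested were called higher. At 360 min, 4 of 4 passed, where 69.7% of genes tested were called higher. Values are the authors' normalised signal, in which 1 is the geometric mean of the control genes, and changes are log2 fold changes with their SE and a Benjamini-Hochberg adjusted p over all genes of the table, with a threshold of 0.05.

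Scg2 had a lowest, median and highest signal of 4.64, 5.77 and 7.04 at 360 min of sustained activity, against 0.0838, 0.412 and 0.91 in unstimulated cultures. Every replicate at 360 min stood above every unstimulated one, as in 41.5% of all 277 genes tested. The log2 fold change of Scg2 was 4.01 ± 0.40 (limma, adjusted p = 2.55e-11). At 60 min the values were 0.454, 0.686 and 1.25, which overlapped those of unstimulated cultures, and the log2 fold change of 1.00 ± 0.39 did not pass (adjusted p = 0.0924). Without unstimulated replicate 3, the highest of its group, it was 1.22 (adjusted p = 0.0257). At 20 min Scg2 had 0.333, 0.387 and 0.426, inside the unstimulated range.

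Vgf moved earlier. At 60 min of sustained activity its signal had a lowest, median and highest value of 0.104, 0.149 and 0.639, against 0.00584, 0.0135 and 0.0263 in unstimulated cultures, and at 360 min 0.156, 0.405 and 2.21. Neither time overlapped the unstimulated range, where 10.1% of genes tested lay wholly above it at 60 min and 41.5% at 360 min. For Vgf the log2 fold change was 3.03 ± 0.51 at 60 min (limma, adjusted p = 7.32e-06) and 4.25 ± 0.53 later (adjusted p = 4.08e-09). The unstimulated values lie near the pseudocount of 0.00936, so these changes are understated. At 20 min Vgf had 0.015, 0.0158 and 0.021, inside the unstimulated range, and the change from 20 to 60 min passed (2.85 ± 0.65, adjusted p = 0.00181), where 9.39% of genes tested were called higher.

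Adcyap1 had a lowest, median and highest signal of 0.712, 1.10 and 1.58 at 360 min of sustained activity, against 0.0047, 0.0955 and 0.156 in unstimulated cultures. The groups did not overlap, where 41.5% of genes tested lay wholly above, and the log2 fold change was 3.76 ± 0.58 (limma, adjusted p = 3.52e-07). At 60 min the values of 0.0306, 0.119 and 0.272 overlapped the unstimulated ones (0.56 ± 0.56, adjusted p = 0.725). Pam, the amidating enzyme, had 8.04, 13 and 18.9 at 360 min, against 2.26, 2.94 and 4.17 in unstimulated cultures. Again the groups did not overlap, with a log2 fold change of 2.06 ± 0.25 (adjusted p = 3.1e-09), while at 60 min Pam had 2.48, 3.11 and 5.73 (0.09 ± 0.24, adjusted p = 0.901).

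The whole panel had shifted at 360 min: the median log2 fold change over all genes tested was 1.5, against 3.88 over the 4 genes, 0.13 at 60 min and 0.05 at 20 min. With every library rescaled to the same median, Scg2, Vgf and Adcyap1 kept their calls at 360 min and Pam did not (0.42, adjusted p = 0.186). Pam thus rose relative to the control genes, and its rise relative to the rest of the panel did not pass.

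From 60 to 360 min of sustained activity, Scg2 rose further by 3.01 ± 0.40 (limma, adjusted p = 3.18e-08), Adcyap1 by 3.20 ± 0.58 (adjusted p = 8.18e-06) and Pam by 1.97 ± 0.25 (adjusted p = 1.28e-08), where 58.8% of genes tested were called higher and the median of all genes was 1.18. Vgf, already up at 60 min, stood at 1.22 ± 0.53 (adjusted p = 0.0412). That call was lost after rescaling (0.17, adjusted p = 0.808), with a pseudocount at the 5th percentile (adjusted p = 0.0573), with only these groups fitted (adjusted p = 0.0534) and without any 1 of 9 libraries, which were replicates 3, 4, 5, 6 and 7 at 60 min and replicates 1, 2, 3 and 7 at 360 min. Adjusted p was then between 0.0508 and 0.197, the last without replicate 2 at 360 min, where the log2 fold change was 0.75.

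**Figure D1:**
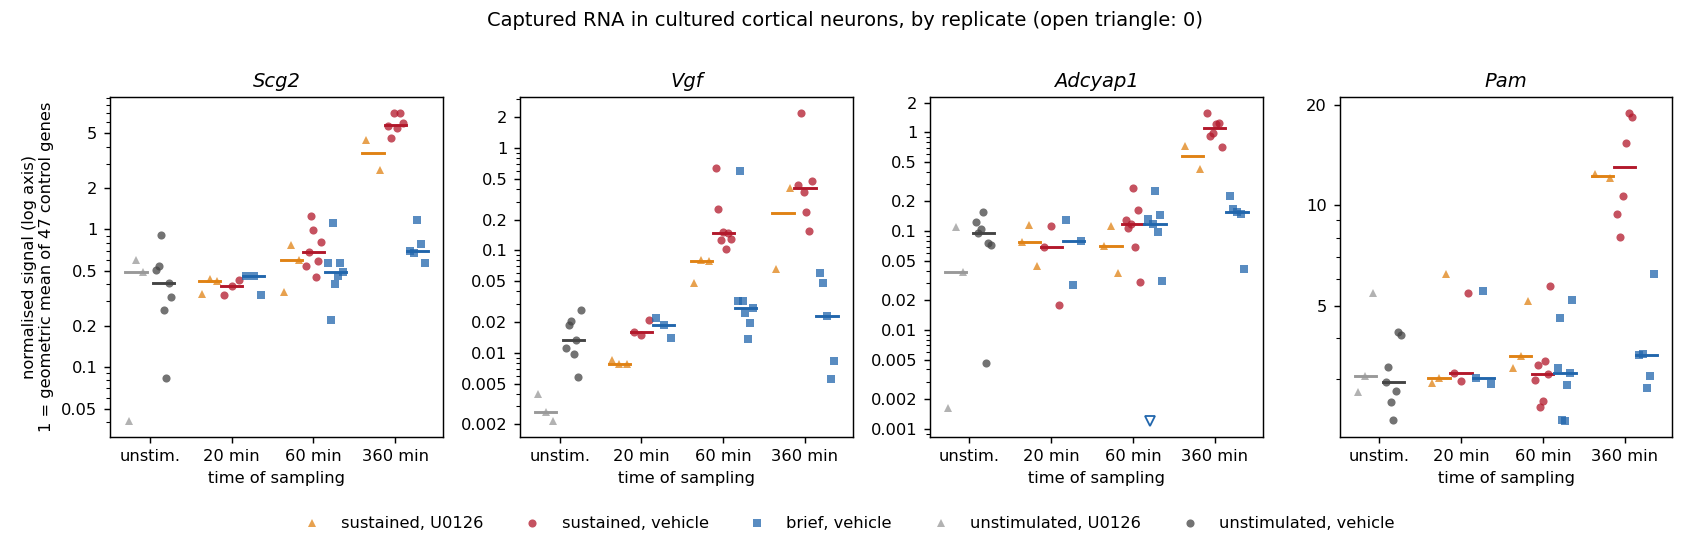
Captured RNA of the 4 genes in cultured neurons: normalised signal on a log axis (1 is the geometric mean of 47 control genes) against the time of sampling. Points are replicates, bars are group medians, and the open triangle is a replicate at 0; Vgf had already left its unstimulated range at 60 min of sustained activity, where the 7 vehicle cultures lay between 0.104 and 0.639, while the other 3 genes did so at 360 min.

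Brief and sustained responses share their unstimulated cultures in every culture assay. After brief activity, 0 of the 4 genes passed the limma test at 20, 60 or 360 min in vehicle cultures, where 2.17%, 5.42% and 0% of genes tested were called higher. At an unadjusted p under 0.05, 0 genes stood out at 20 min, 1 at 60 min (Vgf) and 1 at 360 min (Scg2). The changes at 20 min lay between −0.04 ± 0.72 for Adcyap1 and 0.26 ± 0.31 for Pam. At 60 min they were 1.12 ± 0.51 for Vgf (adjusted p = 0.273), 0.47 ± 0.39 for Scg2, 0.08 ± 0.56 for Adcyap1 and 0.08 ± 0.24 for Pam. Without the library of 8498 reads, Vgf stood at 0.53 ± 0.41 (unadjusted p = 0.21, limma adjusted p = 0.822), Scg2 at 0.66 ± 0.39 and Adcyap1 at 0.61 ± 0.51, and 0 genes had an unadjusted p under 0.05. Scg2 had 0.699, 0.679, 1.18, 0.781 and 0.572 at 360 min after brief activity, which overlapped the unstimulated range in 4 of 5 cultures (1.07 ± 0.43, adjusted p = 0.892). Vgf at 60 min after brief activity lay between 0.0135 and 0.0324 in 6 of 7 cultures. In the other, the library of 8498 reads, it was 0.591 from 8 reads, and Adcyap1 was 0 there. Adcyap1 at 360 min after brief activity had 0.228, 0.169, 0.157, 0.149 and 0.0412 (0.82 ± 0.61, adjusted p = 0.997), and Pam 3.54, 3.56, 2.82, 3.07 and 6.21 (0.27 ± 0.27, adjusted p = 0.997).

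Sustained against brief activity was tested directly. At 20 min, 0 of 4 genes differed, where 0% of genes tested were called, and 0 had an unadjusted p under 0.05 (−0.27 ± 0.85 for Adcyap1 to 0.02 ± 0.37 for Pam). At 60 min, 1 of 4 was higher with sustained activity, Vgf by 1.91 ± 0.51 (limma, adjusted p = 0.00735), where 7.58% of genes tested were called higher. Without the library of 8498 reads the Vgf difference was 2.50 (adjusted p = 1.77e-05), and with it but with only these groups fitted the call was lost (adjusted p = 0.111). At 360 min, 4 of 4 were higher with sustained activity, where 66.4% of genes tested were called higher and the median of all genes was 1.37. The differences were 2.94 ± 0.44 for Scg2 (adjusted p = 2.66e-07), 3.79 ± 0.57 for Vgf (adjusted p = 3.4e-07), 2.94 ± 0.63 for Adcyap1 (adjusted p = 0.000103) and 1.79 ± 0.27 for Pam (adjusted p = 4.39e-07). No sustained culture overlapped a brief one at that time in any of the 4 genes, and the same held for 45.8% of all 277 genes tested, with every sustained culture above. After rescaling, Adcyap1 (1.45, adjusted p = 0.0897) and Pam (0.30, adjusted p = 0.448) lost the call.

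With MEK inhibited by U0126, the genes still rose with sustained activity. Against unstimulated U0126 cultures, 0 of 4 passed at 20 min by limma, with 0 at an unadjusted p under 0.05 and 0.361% of genes tested called higher. Against the same cultures, 1 of 4 passed at 60 min (Vgf), where 7.22% of genes tested were called higher, and 4 of 4 at 360 min, where 49.1% were and the median of all genes was 1.30. Scg2 had 4.47 and 2.69 at 360 min with U0126, against 0.0405, 0.605 and 0.487 in unstimulated U0126 cultures, a log2 fold change of 3.82 ± 0.66 (limma, adjusted p = 1.3e-05). Adcyap1 had 0.732 and 0.423 at 360 min, against 0.00164, 0.11 and 0.0387 (3.83 ± 0.96, adjusted p = 0.00124). Both lay above every unstimulated U0126 replicate, as 57.8% of genes tested did. Pam had 12.4 and 12.1, against 2.75, 3.07 and 5.46 (1.77 ± 0.41, adjusted p = 0.000685). After rescaling, Adcyap1 (2.23, adjusted p = 0.0983) and Pam (0.16, adjusted p = 0.824) lost the call. With only these groups fitted, Scg2, Adcyap1 and Pam all lost it (adjusted p 0.0567 to 0.0643).

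Vgf passed under U0126 at both later times. It had 0.0482, 0.0816 and 0.0789 at 60 min of sustained activity with U0126, against 0.00397, 0.00265 and 0.00215 in unstimulated U0126 cultures (2.66 ± 0.77, limma, adjusted p = 0.0194), and 0.0653 and 0.404 at 360 min (3.84 ± 0.86, adjusted p = 0.000459). The 60 min call was lost with a pseudocount at the 25th percentile (1.36, adjusted p = 0.304), after rescaling (2.10, adjusted p = 0.0708) and without any 1 of replicates 6 and 7 of either group (adjusted p 0.0556 to 0.0894). The 360 min call was lost without replicate 7 of the 2 cultures (2.61, adjusted p = 0.0512).

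U0126 against vehicle gave 0 called genes of the 4 in unstimulated cultures or at 20, 60 or 360 min of sustained activity by limma, and 0 at an unadjusted p under 0.05. Of the genes tested, 0%, 0.722%, 1.44% and 0% were called lower with U0126 in these states. Vgf did not overlap between the drugs in 3 of the 4 states: all 3 U0126 replicates lay below all vehicle replicates when unstimulated (0.00215 to 0.00397, against 0.00584 to 0.0263), at 20 min (0.00769 to 0.00852, against 0.015 to 0.021) and at 60 min (0.0482 to 0.0816, against 0.104 to 0.639). Of all genes tested, 1.44%, 4.33% and 3.97% lay wholly below vehicle in these states, and 7.22% at 360 min, where the member that did was Scg2. The log2 differences of Vgf were −0.93 ± 0.65, −0.61 ± 0.77, −1.30 ± 0.65 and −1.34 ± 0.77 when unstimulated and at 20, 60 and 360 min (adjusted p 0.807, 1, 0.993 and 0.977). The unstimulated U0126 values and those at 20 min lie below the pseudocount, which narrows the difference on this scale. For Scg2, Adcyap1 and Pam at 360 min the differences were −0.76 ± 0.59, −0.94 ± 0.85 and −0.06 ± 0.37. The response itself did not differ detectably between U0126 and vehicle for any of the 4 genes: at 360 min the interaction was −0.19 ± 0.78 for Scg2, −0.40 ± 1.01 for Vgf, 0.07 ± 1.12 for Adcyap1 and −0.30 ± 0.48 for Pam, with SEs of 0.48 to 1.12 that are wide for such a test. Brief activity with U0126 was not analysed here for captured gene RNA.

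With protein synthesis blocked by cycloheximide, all 4 genes still rose over 360 min of sustained activity. Against unstimulated cultures with the same drug, 4 of 4 passed the limma test with cycloheximide, where 54.8% of genes tested were called higher and the median of all genes was 1.27. In vehicle cultures of this experiment 4 of 4 passed, where 73.9% were called higher and the median was 1.85. For the response itself, 0 of 4 genes differed between cycloheximide and vehicle, where 4.95% of genes tested were called higher and 11% lower, and 1 had an unadjusted p under 0.05 (Vgf).

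The levels under cycloheximide differed by gene. Vgf had 1.29 and 1.44 at 360 min with cycloheximide, against 0.595 and 0.344 at 360 min with vehicle, and 0.112 and 0.187 when unstimulated with cycloheximide, against 0.00524 and 0.0149 when unstimulated with vehicle. Vgf was higher with cycloheximide in both states, without overlap, by 1.57 ± 0.40 with activity (limma, adjusted p = 0.00845) and by 2.90 ± 0.40 when unstimulated (adjusted p = 0.000384). Of the 283 genes tested, 30% lay wholly above vehicle with activity and 34.3% when unstimulated. The Vgf call at 360 min was lost without replicate 2 of the cycloheximide cultures (1.49, adjusted p = 0.0668). The Vgf response was 3.13 ± 0.40 with cycloheximide and 4.46 ± 0.40 with vehicle. Their difference of −1.33 ± 0.57 did not pass (limma, adjusted p = 0.13), except without vehicle replicate 2 at 360 min (−1.72). The unstimulated vehicle values lie near the pseudocount of 0.0115, so the vehicle response is understated and the difference between the responses is narrowed on this scale.

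Adcyap1 went the other way. It had 0.802 and 0.869 at 360 min with cycloheximide, against 1.88 and 2.66 with vehicle, and 0.0113 and 0.0228 when unstimulated with cycloheximide, against 0.104 and 0.0999 with vehicle. It was lower with cycloheximide, without overlap, by −1.41 ± 0.35 at 360 min (limma, adjusted p = 0.00701) and −2.02 ± 0.35 when unstimulated (adjusted p = 0.00224). Of genes tested, 36.7% lay wholly below vehicle at 360 min and 25.4% when unstimulated. The Adcyap1 response was 4.92 ± 0.35 with cycloheximide and 4.31 ± 0.35 with vehicle. Of the 4 genes, 1 was called higher (Vgf) and 1 lower (Adcyap1) at 360 min, where 18% and 22.6% of genes tested were, and 2 were called higher and 1 lower when unstimulated, where 9.19% and 2.12% were.

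Scg2 had 16.3 and 13 at 360 min with cycloheximide, against 7.88 and 10.4 with vehicle (0.69 ± 0.35, limma, adjusted p = 0.132), and 1.28 and 1.57 when unstimulated with cycloheximide, against 0.533 and 0.717 with vehicle. The unstimulated difference of 1.18 ± 0.35 was called (adjusted p = 0.0478), but was lost without any 1 of the 4 unstimulated libraries (adjusted p 0.109 to 0.411), with no filter on low values (adjusted p = 0.0564), with a pseudocount at the 5th percentile (adjusted p = 0.0555) and after rescaling (0.83, adjusted p = 0.117). Pam had 14.4 and 9.82 at 360 min with cycloheximide, against 21.4 and 19.9 with vehicle, and 1.9 and 3.06 when unstimulated with cycloheximide, against 3.49 and 5.17 with vehicle. The cycloheximide cultures were lower in both states without a call (−0.79 ± 0.38 and −0.81 ± 0.38, adjusted p = 0.114 and 0.23). Pam's response was 2.30 ± 0.38 with cycloheximide and 2.28 ± 0.38 with vehicle, and neither kept its call after rescaling (0.76, adjusted p = 0.0842, and 0.36, adjusted p = 0.496).

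**Figure D2:**
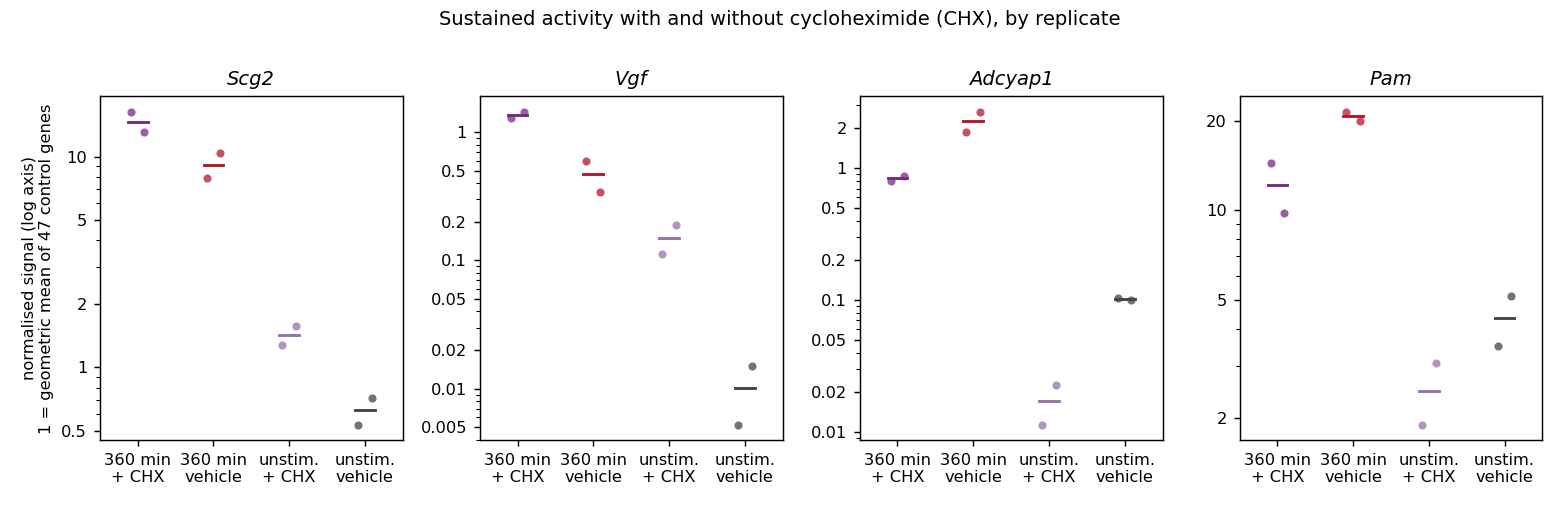
The 4 genes with and without cycloheximide: normalised signal on a log axis (1 is the geometric mean of 47 control genes) by group, with points for the 2 replicates and bars for the group medians. The cycloheximide points of Vgf lie above the vehicle points in both states and those of Adcyap1 below them, while all 4 genes are higher at 360 min than when unstimulated with either drug.

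Intron reads, which come mostly from RNA not yet spliced, passed the test for Vgf at 20 min and for Scg2 at 60 min of sustained activity. At 20 min of sustained activity 1 of the 7 member transcripts passed the limma test, Vgf, where 0.223% of 21520 transcripts tested were called higher. At 60 min 3 of 7 passed, the Vgf transcript and both of Scg2, where 3.14% were called higher and 4.64% lower. Vgf introns had 2.02 and 2.55 RPM at 20 min of sustained activity, against 0.0726 and 0.0711 RPM in unstimulated cultures, and 11.6 and 6.02 RPM at 60 min. These rest on 98 reads at 20 min and 324 at 60 min, against 5 reads in unstimulated cultures. The ratio of pooled read shares was 32.1 at 20 min (95% exact interval 13.3 to 100.9) and 120 at 60 min (50.8 to 371), intervals that cover counting error only. On the log2 scale, where the pseudocount of 0.248 RPM exceeds the unstimulated levels, the changes were 2.98 ± 0.28 (adjusted p = 0.00215) and 4.75 ± 0.28 (adjusted p = 3.73e-05).

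Scg2 introns of the transcript NM_009129 had 19.1 and 22.1 RPM at 60 min of sustained activity, against 1.92 and 1.03 RPM in unstimulated cultures (3.64 ± 0.35, limma, adjusted p = 0.000541). At 20 min they had 5.67 and 6.85 RPM, above both unstimulated replicates, where 12.5% of transcripts tested lay wholly above. This change was not called (1.96 ± 0.35, limma, adjusted p = 0.0654). The other transcript, NM_001310680, had 27.3 and 30.3 RPM at 60 min, against 6.85 and 4.9 RPM (2.27 ± 0.24, adjusted p = 0.000846). With a pseudocount at the 25th percentile, the change of NM_009129 at 20 min was 1.14 and was called (adjusted p = 0.0478). The 2 transcripts can share reads and are not independent. The captured signal of Scg2 at the same 60 min did not pass (adjusted p = 0.0924, and 0.0257 without unstimulated replicate 3). The 2 assays were normalised separately and their difference was not tested.

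Introns of Pam had 232.5 and 373.9 RPM at 60 min of sustained activity, against 175.5 and 283.6 RPM in unstimulated cultures (0.40 ± 0.41, limma, adjusted p = 0.729). With the replicate number as a block in the fit, this change was called (0.40, limma, adjusted p = 0.00263). The labels do not say that numbers are shared between groups. Replicate 2 exceeded replicate 1 in every group with both. Introns of Adcyap1 (NM_009625) had 5.31 and 1.16 RPM at 60 min, against 2.47 and 0.905 RPM (0.67 ± 0.95, adjusted p = 0.848), and here replicate 1 was the higher one in each such group. None of the 3 Adcyap1 transcripts was called in any comparison.

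After brief activity, Vgf introns had 1.97 and 1.56 RPM at 20 min, against 0.0726 and 0.0711 RPM in unstimulated cultures, and 0.645 RPM from 7 reads in the single library at 60 min. At 20 min 1 of 7 transcripts was called, Vgf by 2.65 ± 0.28 (limma, adjusted p = 0.00652), where 0.107% of transcripts were called higher. That call was lost without any 1 of the 4 replicates (2.50 to 2.80). Scg2 introns (NM_009129) had 9.49 and 6.69 RPM at 20 min after brief activity, above both unstimulated replicates, where 11.4% of transcripts tested lay wholly above. The Scg2 change was 2.31 ± 0.35 (limma, adjusted p = 0.0572), and the level at 60 min was 2.77 RPM. With a pseudocount at the 25th percentile the change at 20 min was 1.40 and was called (adjusted p = 0.0344), as it was with the first culture of each number only (2.33, adjusted p = 0.0373). At 60 min 0 of 7 transcripts were called, by limma or by edgeR on the recovered reads, where limma called 0% of all transcripts, and 1 had an unadjusted p under 0.05 (Vgf, 1.48 ± 0.34, adjusted p = 0.39).

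Sustained against brief activity at 60 min, 3 of 7 transcripts were higher with sustained activity, where 1.38% of transcripts tested were called higher: Vgf by 3.27 ± 0.34 (limma, adjusted p = 0.00169) and Scg2 by 2.78 ± 0.43 (NM_009129, adjusted p = 0.015) and 1.64 ± 0.29 (NM_001310680, adjusted p = 0.026). The brief group is 1 library here and is assumed to vary like the others. Without either sustained library both Scg2 calls were lost (adjusted p 0.0608 to 0.107). From 20 to 60 min of sustained activity the same 3 transcripts were higher by 1.78 ± 0.28, 1.68 ± 0.35 and 1.45 ± 0.24 (adjusted p = 0.0166, 0.0425 and 0.0202), where 1.35% were called higher. Each of these 3 was lost without sustained replicate 1 or 2 at 20 min or replicate 1 at 60 min (adjusted p 0.0612 to 0.209), and the 2 of Scg2 also without replicate 2 at 60 min (adjusted p = 0.121 and 0.213).

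The early Vgf intron level after brief activity was lower with U0126. Vgf introns had 0.0454 and 0.081 RPM at 20 min after brief activity with U0126, against 1.97 and 1.56 RPM with vehicle. The U0126 values lie at the level of unstimulated cultures and rest on 3 reads, against 85, a ratio of 0.0358 (95% exact interval 0.00723 to 0.108). The log2 difference was −2.69 ± 0.28 (limma, adjusted p = 0.0125), 1 call among 7 transcripts where 0.0279% of all were called lower, and it was lost without any 1 of the 4 libraries (adjusted p 0.0919 to 0.21). With sustained activity Vgf introns had 0.349 and 0.591 RPM at 20 min with U0126, against 2.02 and 2.55 RPM with vehicle (−1.83 ± 0.28, adjusted p = 0.111, where 0.0139% of transcripts were called lower), a ratio of 0.203 (0.117 to 0.334). At 60 min they had 4.55 RPM in the single U0126 library, against 11.6 and 6.02 RPM with vehicle (−0.84 ± 0.34, adjusted p = 0.969), a ratio of 0.53 (0.404 to 0.677). The U0126 values were below both vehicle values in each of these states. Of 21520 transcripts tested, 9.5% lay wholly below vehicle at 20 min after brief activity. With sustained activity 10.2% did at 20 min and 34% at 60 min, where U0126 had 1 library. The Vgf interaction at 20 min after brief activity was −2.61 ± 0.39 and did not pass (limma, adjusted p = 0.243). Scg2 introns (NM_009129) had 5.27 and 3.56 RPM at 20 min after brief activity with U0126, against 9.49 and 6.69 RPM with vehicle, without overlap or a call (−0.84 ± 0.35, adjusted p = 1).

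With U0126, 3 of 7 transcripts still passed at 60 min of sustained activity against unstimulated U0126 cultures, where 1.32% of transcripts were called higher. Vgf introns had 4.55 RPM, against 0.0683 and 0.0459 RPM (3.98 ± 0.34, limma, adjusted p = 0.000937). Scg2 introns had 14 RPM for NM_009129, against 2.21 and 1.68 RPM (2.71 ± 0.43, adjusted p = 0.0127), and 21.4 RPM for NM_001310680, against 6.92 and 6.09 RPM (1.69 ± 0.29, adjusted p = 0.0183). Without either unstimulated library both Scg2 calls were lost (adjusted p 0.0517 to 0.0887). None of the intron calls of Vgf and Scg2 held when only the groups compared were fitted (adjusted p 0.186 to 0.975), which leaves 1 or 2 residual degrees of freedom, while edgeR on the recovered reads kept every one.

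**Figure D3:**
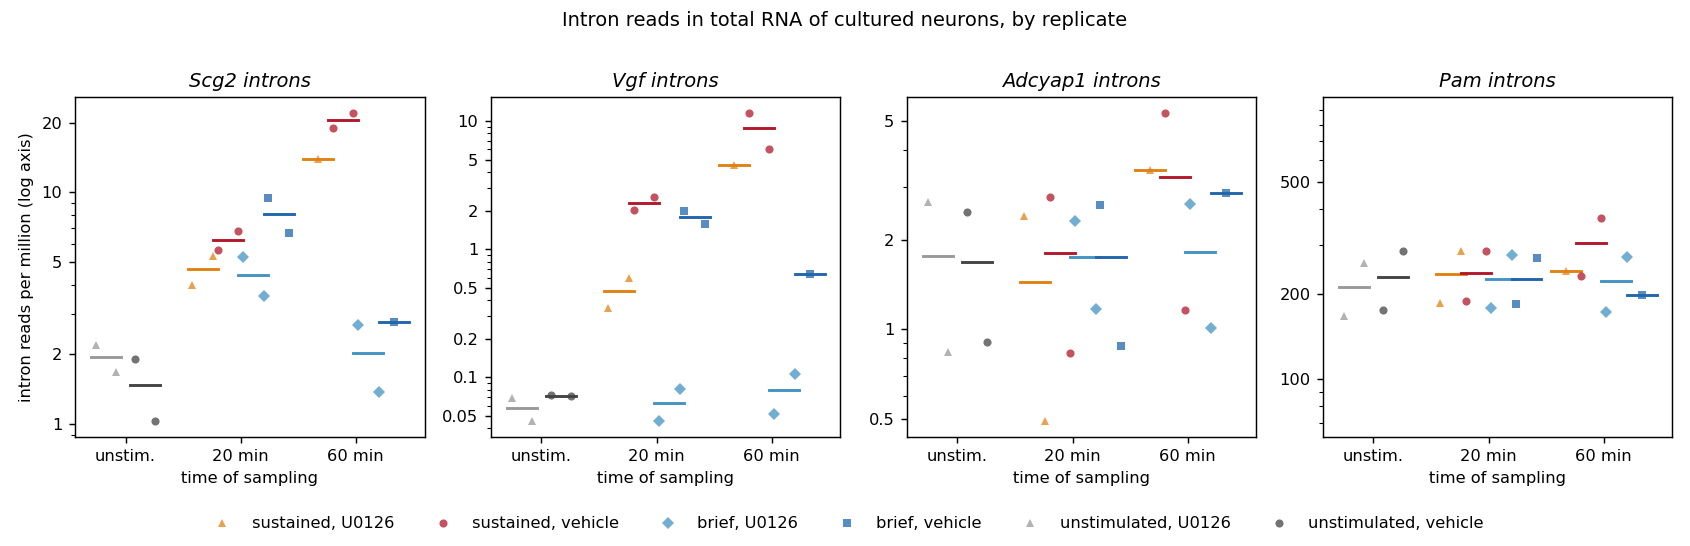
Intron levels in RPM on a log axis for 1 transcript of each gene (NM_009129 for Scg2, NM_009625 for Adcyap1) against the time of sampling; points are replicates and bars group medians. Vgf introns reach 2.02 and 2.55 RPM at 20 min of sustained activity with vehicle and stay at 0.0454 and 0.081 RPM at 20 min after brief activity with U0126, while points of Adcyap1 and Pam spread more between the 2 replicates than between groups.

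Of the enhancer regions, the one called Scg2 region A here was called higher at 60 min of sustained activity in the capture and in total RNA. It is chr1:79428480-79429890 on mm9, the build of the deposited tables, and Scg2 region B is chr1:79446390-79447950. Pam regions A and B are chr1:99994110-99995400 and chr1:100086020-100089980, and Vgf regions A and B are chr5:137500610-137502050 and chr5:137598260-137599490. Where these lie relative to exons and introns was not used here, since the annotation at hand is of another build. In the enhancer capture at 60 min of sustained activity, 1 of 6 member regions passed, where 9.91% of 343 regions tested were called higher and the median over all regions was 0.56.

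Captured RNA of Scg2 region A had 27.5, 23.7, 7.92 and 13.1 at 60 min of sustained activity, against 0.289, 0.257, 0.505 and 0.866 in unstimulated cultures. All 4 lay above all unstimulated replicates, as in 20.4% of 343 regions tested. The log2 fold change of region A was 4.74 ± 0.70 (limma, adjusted p = 1.15e-05). At 20 min after brief activity the region had 10.8, 9.04, 2.26 and 3.04, also without overlap, where 8.16% of regions tested lay wholly above. The change was 3.13 ± 0.70 (limma, adjusted p = 0.02), 1 call of 6 where 1.75% of regions were called higher. That call was lost without unstimulated replicate 1 or 3 or brief replicate 1 or 2 (adjusted p 0.0503 to 0.197) and after rescaling (2.43, adjusted p = 0.318). At 20 min of sustained activity it had 1.02, 2.4, 1.84 and 1.77 (1.64 ± 0.70, adjusted p = 0.317, where 1.17% of regions were called higher), and at 60 min after brief activity 4.83, 4.1, 2.35 and 1.12 (2.27 ± 0.70, adjusted p = 0.798), again above every unstimulated value without a call. Of regions tested, 12% lay wholly above at 20 min of sustained activity and 1.75% at 60 min after brief activity.

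At 60 min, region A was higher with sustained than with brief activity by 2.47 ± 0.70 (limma, adjusted p = 0.0312), 1 call of 6 where 4.08% of regions were called higher. The call was lost without sustained replicate 1 or 2 or brief replicate 2, 3 or 4 (adjusted p 0.0504 to 0.16), after rescaling (2.16, adjusted p = 0.189) and with only these groups fitted (adjusted p = 0.058). Scg2 region B, at 2.12 in the same comparison (adjusted p = 0.0728), was called without sustained replicate 1 (2.91, adjusted p = 0.0427). From 20 to 60 min of sustained activity region A rose by 3.09 ± 0.70 (limma, adjusted p = 0.0104), where 2.33% of regions were called higher, and lost the call without sustained replicate 1 at 60 min (2.84, adjusted p = 0.0688) and after rescaling (2.86, adjusted p = 0.149).

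Region A rose with U0126 as well. It had 15.1, 37.1, 5.87 and 7.6 at 60 min of sustained activity with U0126, against 1.66, 2.71, 0.393 and 0.77 in unstimulated U0126 cultures (3.71 ± 0.70, limma, adjusted p = 0.000482). Region B of Scg2 had 0.816, 4.1, 0.805 and 2.32 with U0126, against 0, 0, 0.0662 and 0.101, without overlap (2.81 ± 0.72, adjusted p = 0.014), and 0, 2.15, 0.781 and 3.36 with vehicle, against 0, 0.701, 0.0469 and 0.142 (1.63 ± 0.72, adjusted p = 0.157). These were 2 of 6 regions with U0126, where 6.41% of regions were called higher and 14.3% lay wholly above. The region B call was lost without U0126 replicate 2 at 60 min (2.40, adjusted p = 0.109) and after rescaling (2.08, adjusted p = 0.246). U0126 against vehicle gave 0 of 6 calls by limma in every state, where 0% of regions were called lower, with 0 regions at an unadjusted p under 0.05 except 1 at 60 min of sustained activity and 2 at 60 min after brief activity. Region A had 0, 0.574, 1.1 and 1.33 at 60 min after brief activity with U0126, against 4.83, 4.1, 2.35 and 1.12 with vehicle (−1.91 ± 0.70, adjusted p = 0.387). The 0 is that of replicate 1, the shallowest library of the enhancer capture with 48309 reads. More regions stood at 0 in that library than in any other of the assay. Whether its 0 at region A comes from low depth was not tested.

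The regions of Pam and Vgf were not called in the capture. At 60 min of sustained activity Pam region A had 3.91, 3.87, 0.49 and 1.67, against 1.3, 0.938, 0.111 and 0.349 in unstimulated cultures (1.72 ± 0.76, limma, adjusted p = 0.157), and Pam region B 6.66, 14.1, 1.79 and 5.26, against 3.24, 3.43, 1.09 and 0.824 (1.52 ± 0.80, adjusted p = 0.272). The groups overlapped in both regions. Vgf regions A and B stood at 1.06 ± 0.60 and 0.80 ± 0.82 (adjusted p = 0.327 and 0.698), and neither was called in any comparison of the capture.

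Total RNA covered the same regions at far lower depth. Scg2 region A had 0.893 and 1.75 (26 and 54 reads) at 60 min of sustained activity, against 0.0931 and 0.062 (7 and 3 reads) in unstimulated cultures (3.68 ± 0.63, limma, adjusted p = 0.0029). Pam region B had 0.653 and 1.1 (19 and 34 reads), against 0.345 and 0.229 (1.51 ± 0.42, adjusted p = 0.0285). These were 2 of the 4 member regions tested, where 15.3% of 372 regions were called higher, and Scg2 region B and Vgf region A fell below the filter on low values. The Pam call was lost without unstimulated replicate 2 or either sustained replicate (1.14 to 1.87, adjusted p 0.063 to 0.196), after rescaling (1.11, adjusted p = 0.157), with the first culture of each number only (1.35, adjusted p = 0.0548) and with only these groups fitted (adjusted p = 0.144). Pam region A, at 1.75 ± 0.61 (adjusted p = 0.0781), was called without unstimulated replicate 1 (2.52, adjusted p = 0.0369). With U0126, Scg2 region A had 1.13 in the single library at 60 min, against 0.146 and 0.0725 (3.12 ± 0.77, limma, adjusted p = 0.0313), where 6.45% were called higher. This call was lost without either unstimulated replicate (3.52 and 2.72) and after rescaling (2.61, adjusted p = 0.115). It was also lost with no filter (adjusted p = 0.0764), with first cultures only (adjusted p = 0.0646) and with only these groups fitted (adjusted p = 0.204). From 20 to 60 min of sustained activity with vehicle, Scg2 region A was higher by 3.9 ± 0.63 (adjusted p = 0.00768), 1 of 4 where 1.88% were called higher, and lost the call without replicate 1 at 20 min or replicate 2 at 60 min (adjusted p = 0.0617 and 0.0816) and with only these groups fitted (adjusted p = 0.0928).

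**Figure D4:**
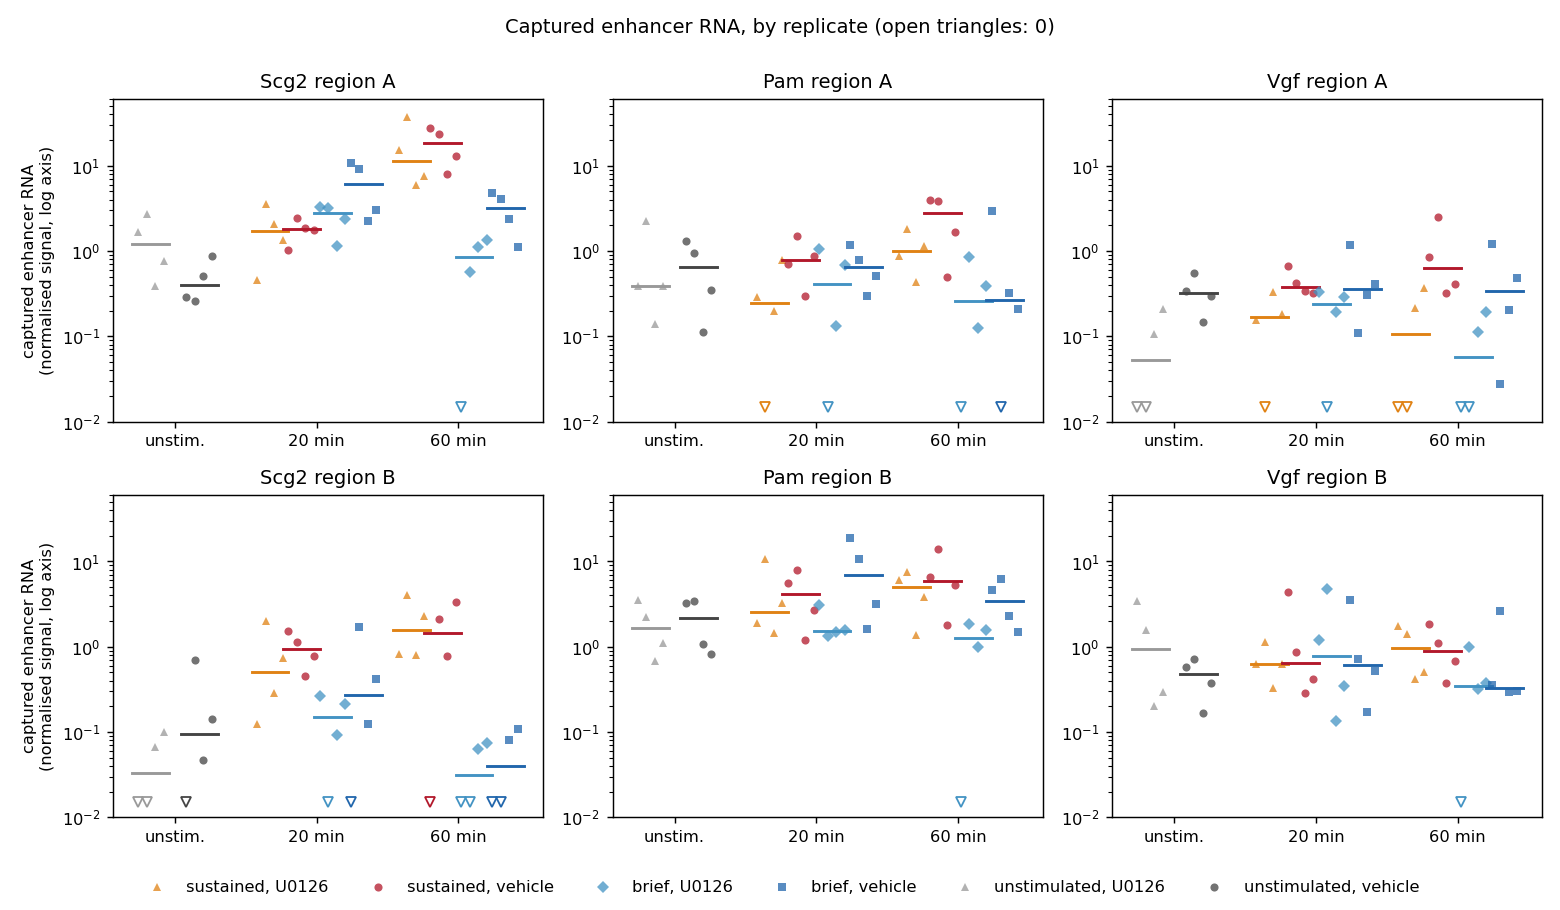
Captured enhancer RNA at the 6 regions assigned to Scg2, Pam and Vgf: normalised signal on a log axis against the time of sampling, with points for replicates, bars for group medians and open triangles for replicates at 0. Scg2 region A stands out, with 7.92 to 27.5 at 60 min of sustained activity with vehicle, against 0.257 to 0.866 in unstimulated vehicle cultures; at 60 min of sustained activity with vehicle, the regions of Pam and Vgf overlap with no activity.

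In visual cortex the changes were small. With sustained light and corn oil, 1 of the 4 genes passed the limma test at 30 min, Pam, where 33.1% of 266 genes tested were called higher, and 1 at 150 min, Scg2, where 9.02% were. Pam had 3.59, 3.81 and 3.73 at 30 min of light, against 3.04 and 3.14 in the dark, without overlap (0.27 ± 0.08, adjusted p = 0.02). All genes had shifted by a median of 0.31 there, and after rescaling Pam turned to −0.24 (adjusted p = 0.197). The call was also lost without either dark sample or light sample 2 (adjusted p 0.0578 to 0.112) and with only these groups fitted (adjusted p = 0.0785). Scg2 had 0.923, 1.04 and 0.964 at 150 min of light, against 0.688 and 0.746 in the dark, without overlap (0.44 ± 0.11, adjusted p = 0.0162). Its call was lost without either dark sample (adjusted p = 0.108 and 0.0646), after rescaling (0.13, adjusted p = 0.574) and with only these groups fitted (adjusted p = 0.104). Pam at 150 min had 3.27, 3.6 and 3.35 in light, against 2.92 and 2.87 in the dark, without overlap or a call (0.23 ± 0.08, adjusted p = 0.0705). It was called with a pseudocount at the 25th percentile (adjusted p = 0.0378), with no filter (adjusted p = 0.047) and without light sample 1 (0.26, adjusted p = 0.0478). All light samples lay above all dark ones in 60.2% of genes tested at 30 min and in 36.5% at 150 min.

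Vgf had 0.0714, 0.0612 and 0.0502 at 30 min of sustained light, against 0.0607 and 0.065 in the dark (−0.05 ± 0.34, limma, adjusted p = 0.909), and 0.118, 0.0412 and 0.0538 at 150 min, against 0.047 and 0.0362 (0.60 ± 0.34, adjusted p = 0.266). Adcyap1 stood at 0.30 ± 0.20 and 0.25 ± 0.20 (adjusted p = 0.245 and 0.431). With SL327, 0 of 4 genes passed in sustained light at 30 or 150 min, where 0.752% and 0.376% of genes tested were called higher, and at an unadjusted p under 0.05 there were 1 (Vgf) and 0. Vgf had 0.0631, 0.0529 and 0.0469 at 30 min of light with SL327, against 0.104 and 0.101 in the dark with SL327 (−0.89 ± 0.34, adjusted p = 0.138), without overlap, and was called with only these groups fitted (adjusted p = 0.0208). Light lay wholly below dark there in 27.8% of genes tested. SL327 against corn oil gave 0 of 4 calls by limma in the dark or in sustained light, with 1 gene at an unadjusted p under 0.05 in the dark at 30 min, 1 in light at 150 min and 0 in the other 2 comparisons, where 0% to 1.88% of genes tested were called lower in light. In the dark at 30 min, where 11.3% of genes tested were called higher, Vgf was 0.104 and 0.101 with SL327, against 0.0607 and 0.065 with corn oil (0.68 ± 0.38, adjusted p = 0.24), and was called with only these groups fitted (adjusted p = 0.0101). The response at 30 min did not pass for a difference between the drugs, with Pam nearest at −0.31 ± 0.11 (adjusted p = 0.0581), where 19.5% of genes tested were called lower. It was called with a pseudocount at the 25th percentile (adjusted p = 0.0385), with no filter (adjusted p = 0.034) and without light sample 1 with SL327 (adjusted p = 0.0432). The difference for Vgf was −0.84 ± 0.48 (adjusted p = 0.228), and was called with only these groups fitted (adjusted p = 0.0313).

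With brief light, 0 of the 4 genes passed at 30 or 150 min with SL327 or corn oil, and 0 differed between the drugs, by limma, where 0% to 1.15% of genes tested were called higher with light, 0.385% of them at 150 min with SL327. With SL327 against corn oil, 1.54% and 3.46% were called lower in the dark at 30 and 150 min, and 4.62% and 0% in brief light. At an unadjusted p under 0.05, 1 gene of 4 was found in 2 of these comparisons, Adcyap1 in both. It had 0.0825 and 0.0807 at 150 min of brief light with corn oil, against 0.132 and 0.11 in the dark (−0.54 ± 0.22, adjusted p = 0.586), and 0.136 and 0.138 at 150 min of brief light with SL327 (0.73 ± 0.22 against corn oil, adjusted p = 0.107, and 0.0432 with only these groups fitted). The groups did not overlap in either comparison. Of genes tested, 23.5% lay wholly below dark at 150 min of brief light with corn oil. With SL327 against corn oil in that light, 34.2% lay wholly above. At 30 min of brief light with corn oil, where 1.15% of 260 genes tested were called higher, Scg2 had 0.743, 0.61 and 0.786, against 0.757, 0.885 and 0.783 in the dark (−0.19 ± 0.17, adjusted p = 0.75), and Pam 3.08, 2.75 and 3.25, against 3.09, 3.24 and 3.15 (−0.06 ± 0.10, adjusted p = 0.897). Vgf at the same time had 0.0341, 0.0655 and 0.036, against 0.0324, 0.03 and 0.0333 in the dark, without overlap or a call (0.40 ± 0.27, adjusted p = 0.594), as light lay wholly above dark in 11.2% of genes tested. In the other 3 comparisons of brief light with dark, Vgf changes lay between −0.20 ± 0.33 and 0.30 ± 0.30. None of the cell type markers read in culture is on the capture panel, so the tissue label was not checked against markers.

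**Figure D5:**
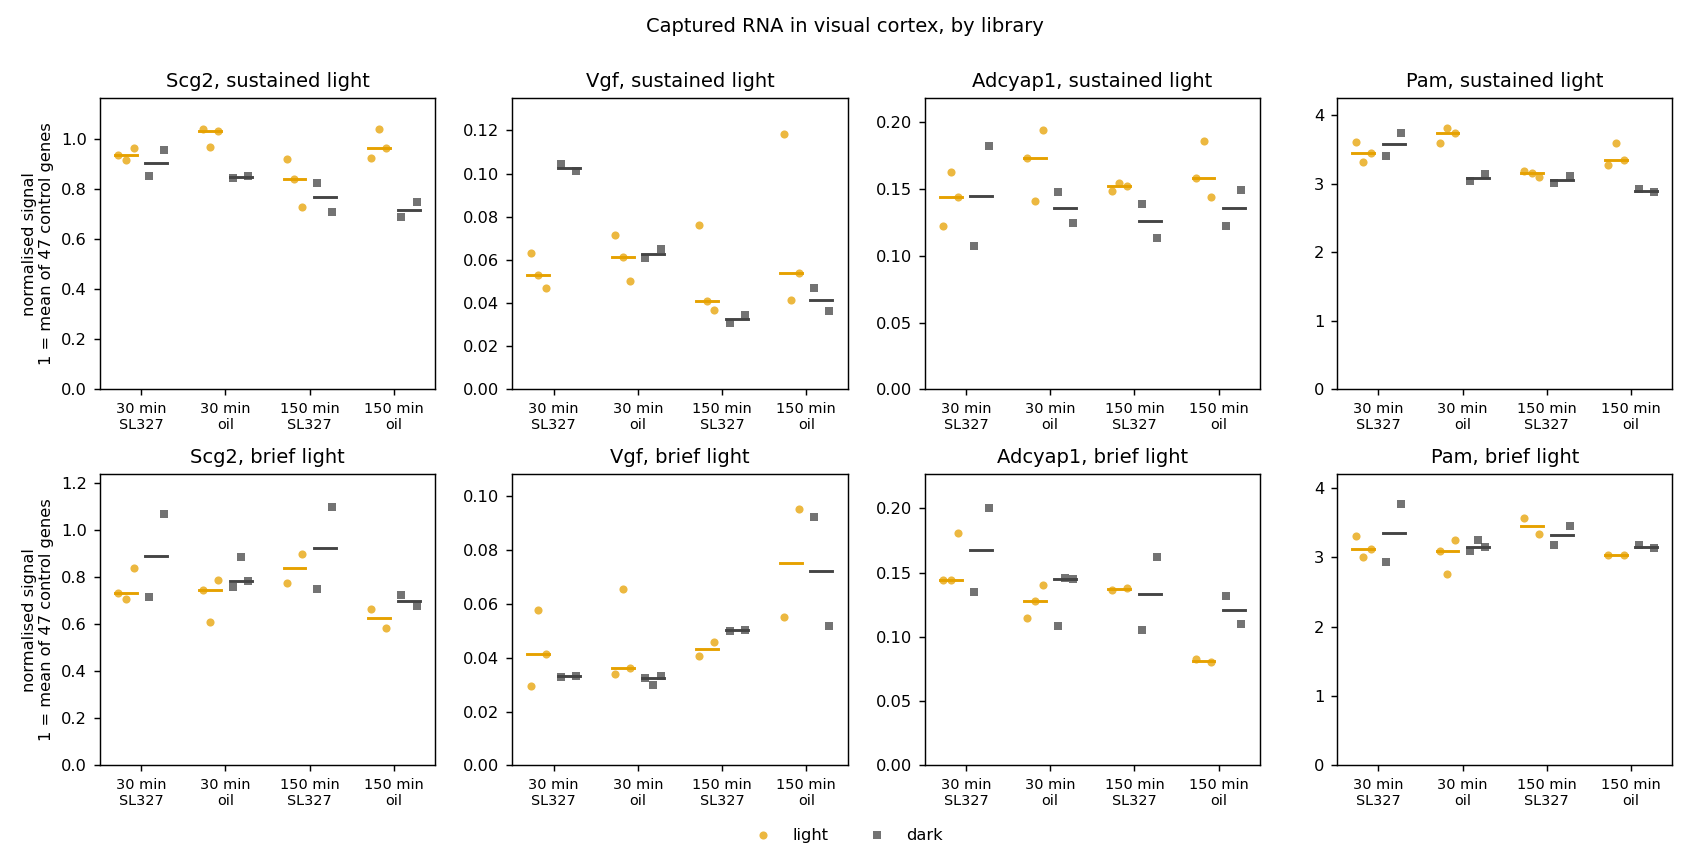
Captured RNA of the 4 genes in visual cortex: normalised signal on a linear axis from 0 (1 is the mean of 47 control genes), for light and dark samples at each time with SL327 or corn oil, sustained light above and brief light below; points are samples and bars group medians. Scg2 lay between 0.923 and 1.04 at 150 min of sustained light with corn oil, against 0.688 and 0.746 in the dark.

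Other genes of the peptide pathway, from a list chosen with earlier results known, were read in the same fits. Of 8 listed genes tested in the gene capture, 1 was higher at 60 min of sustained activity and 8 at 360 min, where 13% and 69.7% of all genes tested were, with a median log2 fold change of 2.14 beside 1.5 over all genes. The one at 60 min was Pcsk1, the convertase, at 2.14 ± 0.29 (limma, adjusted p = 1.06e-07), which reached 6.63 ± 0.30 at 360 min (adjusted p = 4.35e-22). Precursor genes Pnoc, of nociceptin, and Tac1, of substance P, were higher by 2.27 ± 0.34 and 2.12 ± 0.32 at 360 min, and Sstr2, a somatostatin receptor, by 2.00 ± 0.38. After brief activity 0 of 8 were called at any time, where 2.17%, 5.42% and 0% of genes tested were called higher, and 7 of 8 were higher with sustained than with brief activity at 360 min, where 66.4% were. With U0126, 4 of 8 were higher at 360 min, where 49.1% were: Pcsk1, Sstr2, Pnoc and Tac1. By limma 0 of 8 differed between U0126 and vehicle. Chga, chromogranin A, is on the list and is also a control gene of the panel.

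With cycloheximide, 9 of 10 listed genes tested rose at 360 min, and 9 of 10 with vehicle, where 54.8% and 73.9% of all genes tested did. Between the drugs at 360 min, where 18% of genes tested were higher and 22.6% lower with cycloheximide, Sstr2 and Pcsk1 were higher with cycloheximide by 3.12 ± 0.37 and 1.42 ± 0.41, and Pnoc and Tacr3, a tachykinin receptor, lower (−1.82 ± 0.36 and −1.13 ± 0.35). Among introns of 54 listed genes, 3 were higher at 60 min of sustained activity, where 3.14% of transcripts were called higher and 4.64% lower: Pcsk1 by 5.64 ± 0.21, Vamp2, a vesicle fusion protein, by 0.97 ± 0.18, and Cpe, the carboxypeptidase that trims cut peptides, by 0.58 ± 0.13. The gene called lower was the neurotensin receptor gene Ntsr1, 1 of the 54 (−1.13 ± 0.14). A gene is counted if any of its transcripts was called, 94 transcripts in all, while the shares are of transcripts. The counts and shares are therefore not on the same unit. In visual cortex with sustained light and corn oil, 3 of 10 were higher at 30 min (Chga, Nppc and Pnoc) and 1 at 150 min (Pcsk1, 1.08 ± 0.19), where 33.1% and 9.02% of all genes tested were. Chga is also 1 of the 47 control genes that set this scale, so its call is relative to a mean that includes it. The response at 30 min was lower with SL327 than with corn oil for 4 of 10, Chga, Pnoc, Nppc and Adm (−0.55 ± 0.12 to −1.13 ± 0.31), where 19.5% were called lower. With brief light 0 of 10 were called, where 0% to 1.15% of genes tested were called higher.

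Over the 11 group means of the gene capture on the log2 scale, the gene most like Scg2 was Adcyap1 (Pearson r = 0.992), followed by Ccdc184 (0.982) and Maml3 (0.981). Vgf was most like Sik1 (0.977), Nr4a2 (0.972) and Per1 (0.960), and Pam most like Dmxl1 (0.993), Pnoc (0.983) and Stard4 (0.98). Among the 4 genes, Vgf and Pam were least alike (0.707). These values describe 11 groups that share libraries and the shift of the panel at 360 min.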

How the data were processed

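The gene capture tables hold normalised signal values as the authors deposited them: low values were whole multiples of 1 step per sample, and the scale was set by 47 control genes whose geometric mean was 1 in culture and whose mean was 1 in visual cortex, as tested on the deposited values. The enhancer tables hold signal values deposited by the authors with a per-sample factor not given in the sources used here. Intron levels were deposited by the authors as RPM (reads scaled to the library total) for each transcript. STAR, SAMtools, bedtools and the mm9 build are named, without versions, in the submitters' processing notes.

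From these values, read counts were recovered from the steps, and 100.0% of values came out whole within 0.05 reads. Cultures that share a replicate number in a group were averaged on the log2 scale. Each table was fitted over all its groups with limma 3.58.1 in R 4.3.3 on log2(value + pseudocount), with the 10th percentile of non-zero deposited values as pseudocount (0.00936 in the gene capture, 0.0115 with cycloheximide, 0.248 RPM in introns, 0.229 in the enhancer capture, 0.0304 at enhancers in total RNA, 0.00317 with sustained light and 0.00341 with brief light). Features with a mean below it were left out, p-values were adjusted by Benjamini-Hochberg over all features tested, and the threshold was 0.05. An alternative chosen after seeing the data used the quasi-likelihood test of edgeR 4.0.16, with the recovered reads of total RNA as counts. At 60 min of sustained activity with vehicle it called 708 transcripts higher and 1015 lower, and 55 enhancer regions higher and 6 lower. The fits were tested on simulated data. Python 3.11.15 with numpy 2.4.6, pandas 2.3.3, scipy 1.17.1 and matplotlib 3.10.9 did the rest.

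The rule was to name all 4 genes in every comparison; in some without a call they are given only by their count or range. Of the list of peptide pathway genes, up to 4 are named in a comparison, by smallest adjusted p. The genes, lists and tests were chosen with earlier results of these data known. Of 186 samples, 1 could not be placed in a group. Not used were 32 columns, among them repeats of the same U0126 or unstimulated values in other tables and 1 column that matched no sample. The others were 2 identical pairs of total RNA columns, left out whole. Each pair was replicate 2 at 60 min, of vehicle with brief activity and of U0126 with sustained activity, so these groups kept 1 replicate. In 3 visual cortex columns, 1 each of dark at 150 min, sustained light at 150 min and brief light at 30 min, the header's drug number is not that of SL327; they were taken as SL327, the name nearest to it in the labels. The alternatives were other pseudocounts, no filter, rescaling on the median, the replicate block, fewer cultures or groups, and leaving out each replicate. Counting intervals are exact, at 95%, and cover counting error only.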

Additional observations from a re-analysis of the deposited data

Results flagged for a closer look

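Of 80 groups of 4 to 10 replicates, 12 had 1 replicate far from the others by Dixon's criterion. Chance gives this in about 1 in 20 groups where values are normally distributed. The signal was not put on a log scale here, so that rate need not hold, and each flagged value was the highest of its group. In the gene capture with vehicle, Pam was 5.73 in replicate 7 at 60 min of sustained activity, where the others lay between 2.48 and 3.4, and 6.21 in replicate 7 at 360 min after brief activity (2.82 to 3.56). Scg2 was 1.12 in replicate 3 at 60 min after brief activity (0.222 to 0.575). Vgf was 0.639 in replicate 1 at 60 min (0.104 to 0.254) and 2.21 in replicate 2 at 360 min of sustained activity (0.156 to 0.479), and 0.591 in replicate 2 at 60 min after brief activity (0.0135 to 0.0324), the library in which it had 8 of 8498 reads.

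In the enhancer capture, Pam region A was 2.26 in U0126 replicate 2 without stimulation (0.139 to 0.393) and 2.95 in vehicle replicate 1 at 60 min after brief activity (0 to 0.322). Pam region B was 3.1 in U0126 replicate 1 at 20 min after brief activity (1.34 to 1.57). Vgf region B was 4.39 in vehicle replicate 1 at 20 min of sustained activity (0.287 to 0.862), 3.56 in replicate 1 at 20 min after brief activity (0.173 to 0.72) and 2.61 in replicate 2 at 60 min after brief activity (0.292 to 0.356).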

How the results depend on the processing

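Across 1052 values of single genes, transcripts or regions under the alternatives, 901 kept their direction and side of the threshold, 27 gained a call, 1 changed sign and the rest lost the call. The sign change was that of Pam at 30 min of sustained light with corn oil, at −0.24 after rescaling on the median (adjusted p = 0.197). The call was lost in 20 of 77 values after rescaling, in 26 of 77 with only the groups compared, and in 69 of 482 without 1 replicate, while edgeR changed 0 of 27. Counts of calls over a family of comparisons are given next, with the reported count in brackets. After rescaling they were 3 (5) for sustained against brief and 2 (5) for U0126 responses in the gene capture, 1 (3) for later against earlier introns, 1 (2), 1 (2), 0 (1) and 0 (1) for vehicle responses, U0126 responses, sustained against brief and later against earlier in the enhancer capture, 1 (2) and 0 (1) for vehicle and U0126 responses of enhancers in total RNA, and 0 (2) for sustained light against dark. With only the groups compared they were 2 (5) for U0126 responses in the gene capture, 0 for introns in vehicle responses (5), U0126 responses (3), U0126 against vehicle (1), sustained against brief (3) and later against earlier (3), 0 (1) for sustained against brief in the enhancer capture, 1 (2), 0 (1) and 0 (1) for vehicle responses, U0126 responses and later against earlier of enhancers in total RNA, and 1 (2), 1 (0) and 1 (0) for light against dark, SL327 against corn oil and the interaction in sustained light, and 1 (0) for SL327 against corn oil in brief light. With the first culture of each number only, enhancers in total RNA gave 1 (2) and 0 (1) for vehicle and U0126 responses, and with no filter 0 (1) for U0126 responses. The interaction in sustained light gave 1 (0) with no filter and 1 (0) with a pseudocount at the 25th percentile. Leaving out 1 replicate gave 0 to 1 (0) for the cycloheximide interaction, 1 to 3 (3), 0 to 1 (1), 1 to 3 (3) and 0 to 3 (3) for introns in U0126 responses, U0126 against vehicle, sustained against brief and later against earlier, 1 to 2 (2), 1 to 2 (2), 0 to 1 (1) and 0 to 1 (1) in the enhancer capture in the order used above, 1 to 3 (2), 0 to 1 (1) and 0 to 1 (1) for vehicle responses, U0126 responses and later against earlier of enhancers in total RNA, and 1 to 3 (2) and 0 to 1 (0) for light against dark and the interaction in sustained light. Apart from what each alternative removes, the cause was not tested.

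The labels do not say that replicate numbers are shared between groups. Deviations from group means correlated at or below 0.1 in 15 same-numbered pairs of samples in the gene capture (all pairs −0.153 to 0.937), in 10 in the enhancer capture and in 6 of 12 in the cycloheximide experiment, and lay between 0.841 and 0.906 for introns with 2 numbers. In groups of 2, as with cycloheximide and introns, the deviations mirror each other. Both numbers then give the same correlation, so those pairs are not independent. As a hint from the data, 49 of 57 gene capture columns and 46 of 47 enhancer capture columns were most like their own number. With the replicate block, intron calls came to 9 (5) in vehicle responses and 2 (1) for U0126 against vehicle, and enhancer capture calls to 2 (1) for sustained against brief. The block gained 9 calls and lost 0 of 69, among them Scg2 at 60 min of sustained activity in the gene capture (adjusted p = 0.014) and Pam introns at the same time (0.40, adjusted p = 0.00263). Of the unstimulated vehicle cultures, 1 of the 2 labelled with number 6 and 1 of the 2 with number 7 resembled the other number more, and exchanging these, an alternative chosen after seeing the data, changed 0 of 21 values.

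Depth limits Vgf introns in unstimulated cultures, which rest on 5 reads, and enhancer regions in total RNA, where 2 of 6 fell below the filter. In the enhancer capture it limits U0126 replicate 1 at 60 min after brief activity, which had 48309 reads. Every library numbered 1 or 2 in that assay had more regions at 0 than any numbered 3 or 4. Groups of 1 to 3 replicates limit every comparison with cycloheximide or light and every one in total RNA, vehicle included. In the gene capture they limit those with U0126 and those at 20 min.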
